A study of Homo sapiens with 6 samples.

Results

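NUMB and 9 other genes of the Notch pathway were followed in PC9 cells with and without knockdown of the RNA-binding protein RBM10. The genes were chosen by name, for their place in the pathway and because an exon of NUMB is a known target of RBM10. No measured value was part of that rule, but earlier results of these data were known when the genes were chosen. They are the receptors NOTCH1, NOTCH2 and NOTCH3, the ligands JAG1 and JAG2, the regulators NUMB and NUMBL, the DNA-binding factor RBPJ and the target genes HES1 and HEY1. These are 10 of the 16306 genes in the gene table, and all 10 passed the filter on low counts that left 12620 genes for testing. The 3 NUMB transcripts listed among the 76563 rows of the transcript table were followed as well. PC9 is an established human lung adenocarcinoma line that carries an activating deletion in EGFR. RNA was sequenced from 3 samples of the line with a control shRNA (sh-NC, replicates 1 to 3) and from 3 in which the shRNA targeted RBM10 (shRBM10, libraries A, B and C). Only library A can be tied to a replicate number, and the sources used here do not say which RBM10 shRNA each library carried or whether replicates came from separate cultures. The p-values therefore measure the spread between these samples, which may be technical, and a single cell line stands behind every value.

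Notch signaling runs between neighbouring cells: a Jagged or Delta ligand on one cell binds a Notch receptor on the next, the receptor is cut by ADAM proteases and by gamma-secretase, and its freed intracellular domain joins RBPJ and a Mastermind coactivator in the nucleus to switch on genes such as HES1 and HEY1. NUMB is an endocytic adaptor that promotes the removal and degradation of Notch receptors, and NUMBL is its close paralog. NUMB pre-mRNA is spliced in alternative ways, and RBM10 is known to repress inclusion of the exon that lengthens its proline-rich region.

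The 3 NUMB transcripts in the table differ in 2 coding exons. Their sequences are shown because the share of NUMB counts on transcripts that hold them is the readout of this splicing choice. The gene lies on the minus strand at chr14:73275107-73458617 (GRCh38, as are all gene coordinates here). Transcript NM_001005743 holds both alternative exons and has 651 codons before the stop, NM_003744 lacks the short one and has 640 codons, and NM_001320114 lacks the long one and has 603. The short exon is coding exon 3, at chr14:73316390-73316422, and adds 33 bases or 11 codons within the phosphotyrosine-binding domain. The long exon is coding exon 9, at chr14:73279281-73279424, and adds 144 bases or 48 codons to the proline-rich region. In the lines below, read 5′ to 3′ along the transcript, the alternative exon stands in capitals between 20 bases of the exons on either side, and the skipped form joins those same flanks.
33-base exon included: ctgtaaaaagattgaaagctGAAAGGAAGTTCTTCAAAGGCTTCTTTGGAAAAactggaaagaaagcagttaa
33-base exon skipped: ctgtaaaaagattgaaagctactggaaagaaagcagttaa
144-base exon included: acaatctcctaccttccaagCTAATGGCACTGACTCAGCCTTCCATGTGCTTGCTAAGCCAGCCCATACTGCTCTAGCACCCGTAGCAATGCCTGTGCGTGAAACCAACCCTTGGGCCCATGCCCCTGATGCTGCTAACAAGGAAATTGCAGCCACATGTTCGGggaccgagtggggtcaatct
144-base exon skipped: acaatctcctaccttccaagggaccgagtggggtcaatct
Both exons have lengths that keep the reading frame, and all 3 transcripts share the last coding exon.

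The libraries held between 16606390 and 18864243 counts. RBM10 itself had 1431, 1183 and 1469 normalized counts in sh-NC against 537, 515 and 672 in the shRBM10 libraries (counts scaled by edgeR's TMM method to a common library size). The groups did not overlap, and the log2 fold change was -1.24 (SE 0.23), with an adjusted p of 0.1 in edgeR's quasi-likelihood test and 0.00134 in DESeq2 (0.00134 to 0.454 over all settings tried, and 0.0487 with a log2 fold change of -1.42 by edgeR without sh-NC replicate 2). Replicate 2 of sh-NC stood apart, with a TMM factor of 0.738 against 1.03 to 1.08 in the other libraries, and correlated with replicate 1 at r = 0.942 across 12620 genes where replicates 1 and 3 reached 0.994 (genes are not independent replicates). Results for the 10 genes are therefore also given without that library. The shRBM10 libraries also differed among themselves. Library C correlated with sh-NC replicates 1 and 3 at r = 0.983 each, but with libraries A and B at 0.948 and 0.970. Libraries A and B correlated at 0.986, and libraries B and C were placed in their group by column name alone. All 7 epithelial markers examined had at least 10 counts in every library, with a summed level of 33104 to 41049 CPM (counts scaled to a common library total) in sh-NC against 26717 to 37237 in shRBM10. The protocol text of the sample labels speaks of retina, and the 4 retina markers with a row in the gene table (CRX, NRL, PDE6B and RLBP1) summed to 5.04 to 6.38 CPM in sh-NC against 3.59 to 4.37 in shRBM10. Of the 3 fibroblast, 2 leukocyte and 3 endothelial markers with a row in the gene table, 1 of each list had at least 10 counts in every library (DCN and CD3E were not analysed here). The fibroblast markers summed to 2.37 to 7.29 CPM in sh-NC and 6.32 to 11.4 in shRBM10, the leukocyte markers to 0.990 to 1.59 and 1.20 to 1.87, and the endothelial markers to 4.02 to 11.02 and 2.89 to 3.92. The part of such cells in the results was not tested. In bulk RNA, fewer cells that express a gene and less RNA of it per cell cannot be told apart.

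The Notch receptors, which receive the signal, did not separate the groups. NOTCH1 (Entrez 4851, chr9:136494433-136545786, minus strand) had 608.5, 216 and 638 normalized counts in sh-NC (replicates 1 to 3) against 285, 299 and 410 in shRBM10 (libraries A to C). All shRBM10 libraries lay below sh-NC replicates 1 and 3 but above sh-NC replicate 2, so the groups overlapped. The mean was 488 ± 235 (SD, n = 3) in sh-NC and 331.5 ± 68.4 (n = 3) in shRBM10, and the log2 fold change was -0.56 (SE 0.39), with an adjusted p of 0.370 by edgeR. NOTCH2 (Entrez 4853, chr1:119911553-120069626, minus strand) had 3350, 960 and 3570 normalized counts in sh-NC against 2786, 2573 and 3047 in shRBM10. Again sh-NC replicate 2 was the lowest of the 6 libraries and replicates 1 and 3 were the highest, so the means of 2627 ± 1448 and 2802 ± 237.5 gave a log2 fold change of 0.09 (SE 0.41, adjusted p = 0.896 by edgeR). Near-identical NOTCH2NL copies share sequence with the first exons of NOTCH2, and its value is uncertain to the extent that reads were split between them. NOTCH3 (Entrez 4854, chr19:15159038-15200981, minus strand) had 4598, 2432 and 4601 normalized counts in sh-NC against 2676, 3131 and 5008 in shRBM10. Its lowest value was again in sh-NC replicate 2 and its highest in library C, and the log2 fold change was -0.11 (SE 0.33, adjusted p = 0.851 by edgeR).

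The Jagged ligands, which activate the receptors, had lower means with RBM10 knockdown, but their groups also overlapped. JAG1 (Entrez 182, chr20:10637684-10673999, minus strand) had 2475, 1097 and 2645 normalized counts in sh-NC against 1383, 1230 and 1569 in shRBM10. The shRBM10 libraries lay close together, below sh-NC replicates 1 and 3 and above sh-NC replicate 2. The means were 2072 ± 849 (SD, n = 3) and 1394 ± 170 (n = 3), a log2 fold change of -0.57 (SE 0.32) with an adjusted p of 0.279 by edgeR. JAG2 (Entrez 3714, chr14:105140981-105168824, minus strand) had 721, 524.5 and 706 normalized counts in sh-NC against 389, 397 and 591 in shRBM10. Only library C reached into the range of sh-NC, where it exceeded replicate 2. The means were 650.4 ± 109 and 459 ± 114, a log2 fold change of -0.50 (SE 0.27) with an adjusted p of 0.260 by edgeR. The other tested ligands, DLL3 and DLL4, named here after their values were seen, had log2 fold changes of -0.70 (SE 0.37) and -0.21 (SE 0.36), so all 4 tested ligands lay below 0, although DLL4 stood at 0.07 with a GC trend removed and DLL3 at 0.04 with sh-NC replicate 2 left out as well, and 0 of 4 had an unadjusted p under 0.05 in edgeR or DESeq2.

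**Figure D1:**
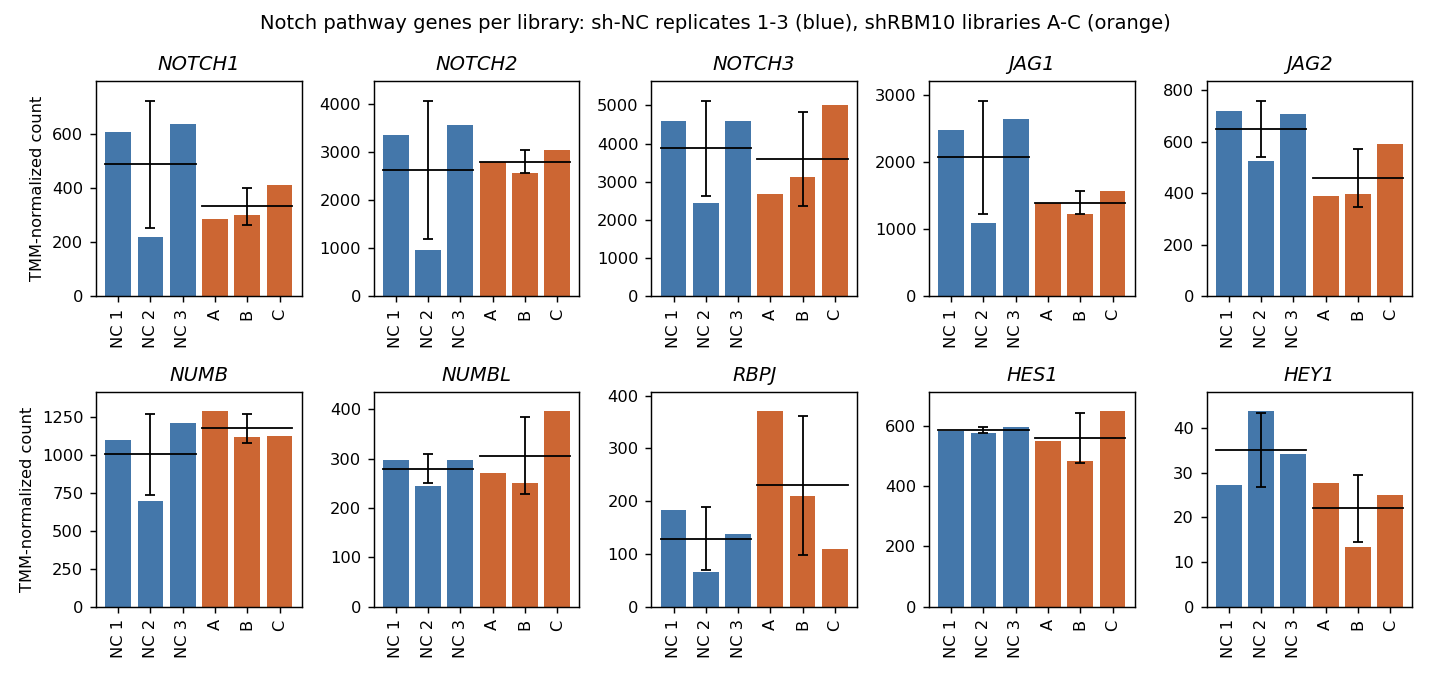
TMM-normalized counts (vertical axes, each starting at 0) of the 10 genes in sh-NC replicates 1 to 3 (blue bars, NC) and shRBM10 libraries A to C (orange bars), with horizontal lines at the group means and error bars of 1 SD (n = 3). Replicate 2 of sh-NC was the lowest control library for 9 of the 10 genes, and the groups overlapped for all 10.

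NUMB RNA as a whole did not differ between the groups beyond their spread. NUMB (Entrez 8650) had 1100, 698 and 1210 normalized counts in sh-NC against 1287, 1119 and 1123 in shRBM10. Replicate 2 of sh-NC was the lowest library, and the other 5 lay between 1100 and 1287. The means of 1003 ± 269 (SD, n = 3) and 1176 ± 96.1 (n = 3) gave a log2 fold change of 0.23 (SE 0.26) with an adjusted p of 0.569 by edgeR, and without sh-NC replicate 2 the change was -0.06. NUMBL (Entrez 9253, chr19:40665905-40690972, minus strand), the paralog, had 297, 245 and 297 normalized counts in sh-NC against 271, 251 and 396 in shRBM10. Library C was the highest and the other shRBM10 libraries lay within the range of sh-NC, with a log2 fold change of 0.13 (SE 0.28, adjusted p = 0.779 by edgeR).

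The share of NUMB counts on transcripts with the 144-base exon, the known RBM10 target, did not differ between the groups beyond their spread. None of the 3 transcripts lacks both alternative exons. Skipping of the 144-base exon was therefore counted only on NM_001320114, which holds the 33-base exon, and any NUMB RNA without both had no row of its own. Transcripts that hold it took 83.8%, 84.7% and 80.2% of the NUMB counts in sh-NC (replicates 1 to 3) against 86.8%, 80.2% and 82.7% in shRBM10 (libraries A to C). Library A was the highest, while B and C lay within or next to the range of sh-NC. The means were 82.9% ± 2.41 (SD, n = 3) and 83.2% ± 3.31 (n = 3), a difference of 0.335 percentage points (exact two-sided permutation test, p = 0.9, where 3 against 3 cannot go below 0.1). The 95% Wilson intervals of single libraries, which cover counting error only, ran from 81.7% to 85.8%, 81.3% to 87.6% and 77.9% to 82.2% in sh-NC and from 84.8% to 88.5%, 77.8% to 82.4% and 80.5% to 84.8% in shRBM10. Leaving out single libraries moved the difference between -1.43 points without library A and 1.84 points, so its direction rests on library A, and on sh-NC replicate 3, without which it was -1.035 points.

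The 33-base exon had a lower share of NUMB counts in all 3 shRBM10 libraries. Its skipping was counted only on NM_003744, which holds the 144-base exon, so the shares of these exons are not independent. This measure was chosen after its values were seen. Transcripts that hold the exon took 63.3%, 68.4% and 64.9% of NUMB counts in sh-NC (replicates 1 to 3) against 60.2%, 58.6% and 58.1% in shRBM10 libraries A, B and C. The highest shRBM10 library lay below the lowest sh-NC library, and the intervals of these libraries, 57.5% to 62.9% for A and 60.6% to 65.98% for sh-NC replicate 1, overlapped. The means were 65.5% ± 2.62 (SD, n = 3) and 59.0% ± 1.13 (n = 3), a difference of -6.58 percentage points (exact two-sided permutation test, p = 0.1, the smallest that 3 against 3 allows), and leaving out single libraries kept it between -7.69 and -5.13 points. Among all transcripts tested for usage, 14.0% of 34147 had shares of their gene's counts that did not overlap between the groups, in either direction. The share of NM_003744, the transcript without this exon, is the complement of this value and was 34.5% ± 2.62 in sh-NC against 41.0% ± 1.13 in shRBM10.

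In counts, NM_001005743 had 572, 271 and 604 in sh-NC against 590, 453 and 477 in shRBM10, NM_003744 had 445, 161 and 471 against 499, 484 and 490, and NM_001320114 had 196, 78 and 266 against 166, 231 and 202. In a fit across 38286 transcripts the log2 fold changes were 0.10 (SE 0.26), 0.50 (SE 0.30) and 0.19 (SE 0.37), with adjusted p-values of 0.940, 0.681 and 0.920 by edgeR. Each of the 3 transcripts was lowest in sh-NC replicate 2. For the test of usage, which asks whether a gene's transcripts change relative to one another, NUMB had a Simes p of 0.905 and an adjusted p of 1.00 by edgeR's diffSpliceDGE, at rank 3853 of 8348 genes, and an adjusted p of 0.970 by limma's diffSplice. Of all genes tested for usage, 0.0958% passed an adjusted p of 0.05 and 2.74% an unadjusted p of 0.05. Counts of transcripts are estimates of how reads in shared exons were divided, and only 41.1% of the values in the transcript table are whole numbers against 87.5% in the gene table.

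**Figure D2:**
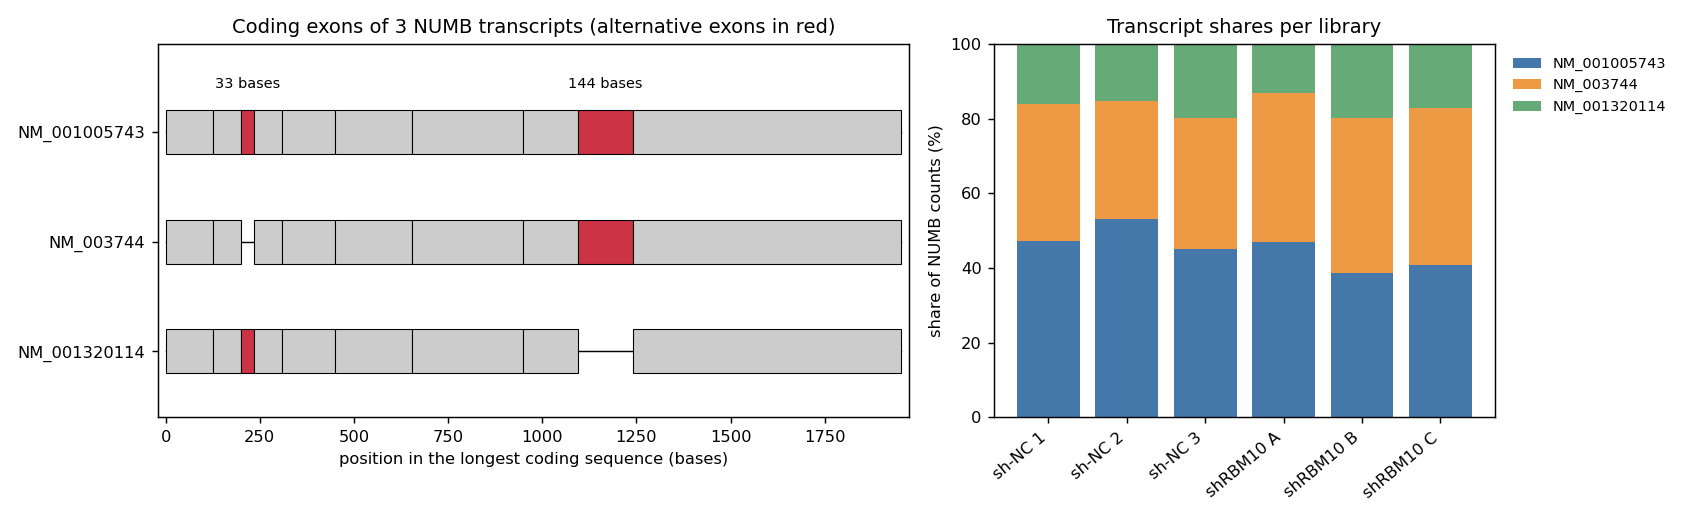
Left, coding exons of the 3 NUMB transcripts drawn to scale against position in the longest coding sequence (bases), with the 33-base and 144-base exons in red and a line where an exon is skipped. Right, the share (%) of NUMB counts on each transcript per library: NM_003744 took 31.6% to 36.7% in sh-NC against 39.8% to 41.9% in shRBM10, while NM_001320114 took 15.3% to 19.8% and 13.2% to 19.8%.

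RBPJ, the factor that carries the Notch signal to DNA, had a higher mean with RBM10 knockdown, but its shRBM10 libraries differed widely among themselves. RBPJ (Entrez 3516, chr4:26163455-26435131, plus strand) had 184, 65.7 and 137 normalized counts in sh-NC against 371, 210 and 110 in shRBM10. Libraries A and B exceeded all sh-NC libraries, whereas library C lay below replicates 1 and 3. The means were 129 ± 59.6 (SD, n = 3) and 230 ± 132 (n = 3), a log2 fold change of 0.83 (SE 0.49) with an adjusted p of 0.298 by edgeR. The change was 0.30 without library A and 1.09 without library C, 0.42 without sh-NC replicate 2, and 1.17 without sh-NC replicate 1, where the unadjusted p by edgeR was 0.0459 and the adjusted p 0.220 (0.162 to 0.923 over all settings tried). RBPJ had the lowest GC content of the 10 genes, 38.0% in its longest transcript. With a trend of gene levels on GC content removed within each library before the fit, its log2 fold change was 0.07. RBPJ also has processed pseudogenes, with which its reads may have been shared.

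HES1, the direct Notch target, varied little across the control libraries in normalized counts. HES1 (Entrez 3280, chr3:194136145-194138732, plus strand) encodes a repressor of transcription and had 583, 578 and 596.5 normalized counts in sh-NC against 551, 484 and 649 in shRBM10. The shRBM10 libraries lay on both sides of the narrow sh-NC range. The means were 586 ± 9.60 (SD, n = 3) and 561.5 ± 83.2 (n = 3), a log2 fold change of -0.06 (SE 0.23) with an adjusted p of 0.876 by edgeR. HEY1 (Entrez 23462), a related repressor, was scarce, with 27.2, 43.8 and 34.3 normalized counts in sh-NC against 27.7, 13.4 and 24.97 in shRBM10. Library A exceeded sh-NC replicate 1, so the groups overlapped, and the log2 fold change was -0.66 (SE 0.38) with an adjusted p of 0.284 by edgeR. Its values rest on 14 to 38 raw counts per library, which limits their precision, and its adjusted p-value by edgeR and the other tools ranged from 0.191 to 0.649 over all settings tried.

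The bases upstream of HES1 are shown because this gene is the textbook example of a promoter that RBPJ binds. The RefSeq table of promoters (GRCh38.p14) held 9 of the 10 genes, without HEY1, and the 250 bases before each start were searched on both strands for the core of the RBPJ motif, TGGGAA or its reverse complement TTCCCA. Of the 9 genes, HES1 alone held a match, and 7321 of 35116 promoters in the table (20.8%) hold at least 1. The HES1 window, chr3:194135898-194136147 on the plus strand, holds 2 matches, given in capitals. Both read TGGGAA on the same strand. The search covers this exact core only and can miss sites that differ from it, so the matches are not taken to be the known RBPJ sites.
HES1 upstream: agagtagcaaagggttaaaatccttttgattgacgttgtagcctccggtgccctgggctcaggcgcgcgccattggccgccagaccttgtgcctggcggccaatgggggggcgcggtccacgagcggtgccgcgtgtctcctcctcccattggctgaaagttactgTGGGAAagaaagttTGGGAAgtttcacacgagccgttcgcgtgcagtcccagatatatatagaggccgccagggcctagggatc
A match is a description of the sequence, and no binding was measured in these samples.

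Of the 10 genes, 0 were called by edgeR, which required an adjusted p under 0.05 and a log2 fold change past 1 in either direction, where 0.0158% of the 12620 genes tested were called. By DESeq2, which called 4.19% of its 12808 genes with an adjusted p, 0 of the 10 were called as well. With the same fold limit but an unadjusted p, again under 0.05, 0 were lower and 0 higher, against 1.53% and 10.1% of all genes, and at that p with any fold 0 were counted against 24.3% of all genes. The groups overlapped for all 10, whereas they did not overlap for 16.2% of all genes that were lower in shRBM10 and for 13.8% that were higher. By direction 6 had a log2 fold change below 0 and 4 above, with a median of -0.08 against 0.03 for all genes. The exact two-sided permutation test gave p-values between 0.2 and 1 for the 10 genes, where 0.1 is the smallest it allows.

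The level in sh-NC replicate 2 relative to the mean of replicates 1 and 3 was 0.277 for NOTCH2, 0.347 for NOTCH1, 0.409 for RBPJ, 0.428 for JAG1, 0.529 for NOTCH3 and 0.605 for NUMB. It was 0.735 for JAG2, 0.826 for NUMBL, 0.980 for HES1 and 1.42 for HEY1, so that 9 of the 10 lay below 1, as did 49.8% of all genes. Among all tested genes NOTCH2 stood at percentile 4.95 of this ratio, NOTCH1 at 7.88, RBPJ at 11.1 and JAG1 at 12.0. The longest transcripts of NOTCH2, NOTCH1 and NOTCH3, at 11389, 9306 and 8666 bases, stood at percentiles 97.5, 94.5 and 93.2 of length. HES1 and HEY1, with 1578 and 2296 bases, were the shortest of the 10 and the only ones with a ratio above that of NUMBL. The part of transcript length in these ratios was not tested.

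Without sh-NC replicate 2, the receptors NOTCH1 and NOTCH2 and both ligands lay lower in every shRBM10 library than in the remaining controls. The log2 fold change was then -0.99 (SE 0.23) for NOTCH1, with an unadjusted p of 0.00245 and an adjusted p of 0.109 by edgeR. JAG1 had -0.96 (SE 0.17), with an unadjusted p-value of 0.000498 and an adjusted one of 0.0930 by edgeR. JAG2 had -0.72 (SE 0.24, adjusted p = 0.158 by edgeR) and NOTCH2, whose sign turned, -0.39 (SE 0.16, adjusted p = 0.190 by edgeR). These 4 genes were lower at an unadjusted p under 0.05, a count to be read against 12.7% of the 12795 genes then tested, and the same 4 did not overlap between groups, against 23.1% of those genes. NOTCH3, with -0.43 (SE 0.27), did not reach that p. NUMB stood at -0.06, NUMBL at -0.04, RBPJ at 0.42, HES1 at -0.15 and HEY1 at -0.57, and the median of the 10 genes was -0.41, with 9 of them below 0 and RBPJ above, while the median of all 12795 genes was 0.02. Without library C in place of that control, 8 of the 10 lay below 0, with a median of -0.35 against -0.05 for all genes.

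The members span GC content from RBPJ at 38.0% to JAG2 at 64.0%, percentiles 7.85 and 94.4 of all genes. Once a GC trend was removed with all 6 libraries, JAG1 stayed at -0.57, NOTCH1 stood at -0.26 and JAG2 at -0.19. Under the same correction NOTCH3 turned to 0.18 and NUMB to -0.14, and NUMBL stood at 0.40. HEY1 stood at -0.79 there, with an unadjusted p of 0.0496 and an adjusted p of 0.275 by edgeR. With the GC trend removed and sh-NC replicate 2 left out, a setting added after the data were seen, JAG1 had a log2 fold change of -0.89 (SE 0.12, adjusted p = 0.0123 by edgeR) and NOTCH1 of -0.63 (SE 0.11, adjusted p = 0.0222 by edgeR). At an adjusted p under 0.05 with any fold these 2 genes were lower, against 4.21% of the genes tested in that setting. NOTCH2 (-0.32), JAG2 (-0.35) and NUMB (-0.34) had adjusted p-values of 0.0947, 0.0891 and 0.188 by edgeR there. Over all settings tried the adjusted p-value ranged from 0.0123 to 0.607 for JAG1, from 0.0222 to 0.729 for NOTCH1, from 0.0891 to 0.630 for JAG2, from 0.0947 to 0.957 for NOTCH2 and from 0.188 to 0.833 for NUMB.

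**Figure D3:**
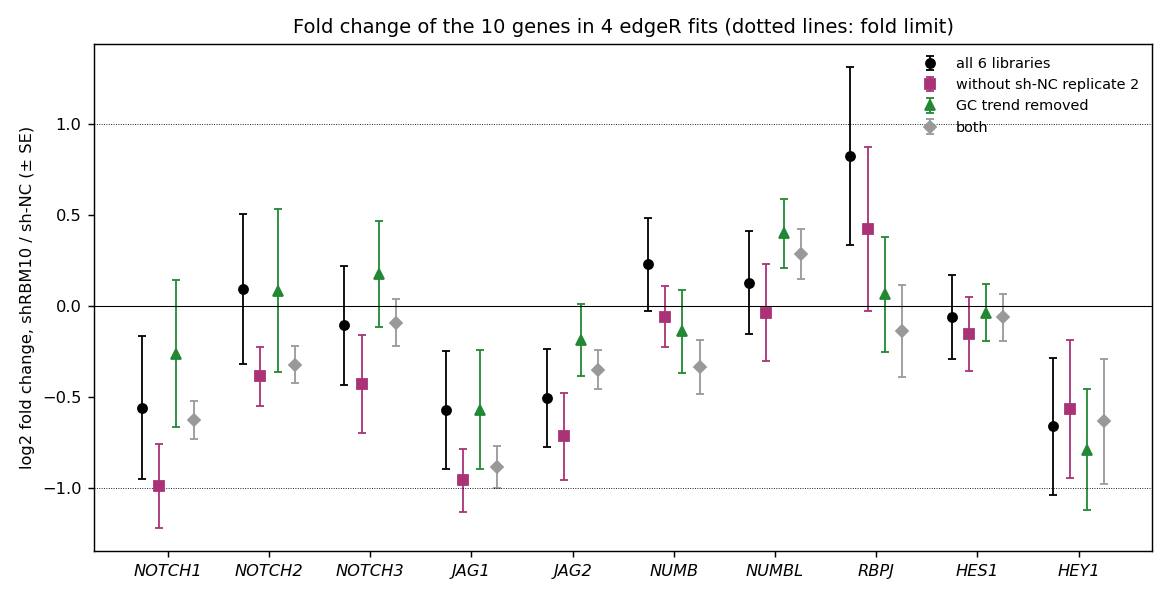
Log2 fold change of shRBM10 against sh-NC (vertical axis, error bars of 1 SE) for the 10 genes in 4 edgeR fits: all 6 libraries (black circles), without sh-NC replicate 2 (purple squares), with the GC trend removed (green triangles) and with both (gray diamonds). JAG1 lay between -0.96 and -0.57 in all 4, whereas NOTCH2, NOTCH3, NUMB, NUMBL and RBPJ changed sign between fits.

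In the sh-NC libraries, where levels per length are given by the deposited TPM values, NOTCH3 had the highest mean of the 10 with 31.9 TPM ± 18.1 (SD, n = 3). HES1 followed with 27.3 ± 9.57, JAG1 with 24.5 ± 15.1, NUMB with 19.7 ± 10.4 and NOTCH2 with 16.3 ± 11.4. JAG2 had 7.56 ± 3.51, NUMBL 5.31 ± 2.24, NOTCH1 3.73 ± 2.44, RBPJ 1.98 ± 1.44 and HEY1 1.053 ± 0.242. The ranges of every pair of neighbours in this order overlapped, since sh-NC replicate 2 gave each of the 10 its lowest TPM. Within replicate 1 the order was the same, and within replicate 3 it differed in 1 exchange, that of HES1 (33.5 TPM) and JAG1 (34.5 TPM). Within replicate 2 HES1 (16.3 TPM) exceeded NOTCH3 (11.1 TPM), NUMB (7.74 TPM) exceeded JAG1 (7.07 TPM), JAG2 (3.51 TPM) exceeded NOTCH2 (3.14 TPM) and HEY1 (0.83 TPM) exceeded RBPJ (0.46 TPM).

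Apart from NUMB, 4 of the genes had at least 2 transcripts that could be tested for usage, and for these the shares did not differ between groups by the test. The Simes p by edgeR was 0.218 for NOTCH1, 0.851 for NOTCH3, 0.968 for JAG2 and 0.856 for RBPJ, and the adjusted p was 1.00 for each. The lowest transcript p among the 4 belonged to the predicted NOTCH1 transcript XM_011518717, which had 191, 80 and 162 counts in sh-NC against 16, 64 and 23 in shRBM10. All shRBM10 libraries lay below the sh-NC libraries. Its usage relative to the gene changed by -1.06 on the natural-log scale, with an unadjusted p of 0.109 by edgeR.

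The wider pathway was described with a list of 70 genes arranged by role, of which 69 are in the table and 65 were tested. Of these, 30 had a log2 fold change below 0 and 35 above, with a median of 0.08 against 0.03 for all genes. This balance rests on single libraries, since without sh-NC replicate 2 it was 38 below and 28 above (median -0.08, all genes 0.02), and without library C it was likewise 38 and 28 (median -0.15, all genes -0.05). By edgeR, 0 of the 65 were called at an adjusted p, against 0.0158% of all genes. By DESeq2, 3 of the 69 list genes with a p-value were called, against 537 of all 16281 genes with a p-value (4.19% of the 12808 with an adjusted p). These were MIB1 (adjusted p = 0.0426 by DESeq2, 0.0426 to 0.574 over all settings tried), NEURL1 and CIR1. The groups did not overlap for 9 genes that were lower and 10 that were higher, to be read against the 16.2% and 13.8% given above. At an unadjusted p under 0.05 by edgeR with any fold, 3 were lower (NEURL1, KAT2A and HES4, the last 2 named after their values were seen) and 11 higher, against 8.60% and 15.7% of all genes. With all 6 libraries the medians by role ran from -0.54 for the 4 tested ligands and -0.52 for the 7 tested targets, through -0.11 for the 3 receptors, -0.02 for the 4 glycosyltransferases, 0.08 for the 9 proteases, 0.10 for the 14 NUMB proteins and endocytic regulators and 0.39 for the 15 corepressors and turnover factors, to 0.83 for the 9 genes of the nuclear complex and coactivators. Without sh-NC replicate 2 the nuclear complex stood at 0.42, the corepressors at 0.13, the receptors at -0.43, the ligands at -0.57 and the targets at -0.52. The glycosyltransferases stood at -0.44 there, but 5 of them were then tested in place of 4, so their 2 medians do not cover the same genes. With the GC trend removed the nuclear complex stood at 0.48, the ligands at -0.25, the targets at -0.24 and the receptors at 0.09. With both changes the nuclear complex stood at 0.10, the corepressors at 0.09, the targets at -0.11, the ligands at -0.22 and the receptors at -0.32.

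NEURL1, a ubiquitin ligase that acts on Notch ligands, was the only list gene of the 65 that was lower at an unadjusted p under 0.05 and past the fold limit, a rule that 1.53% of all genes met. It had 1141, 1290 and 1202 normalized counts in sh-NC against 530, 396 and 626 in shRBM10. The groups lay far apart, sh-NC replicate 2 was the highest library, and the log2 fold change was -1.23 (SE 0.24) with an adjusted p of 0.115 by edgeR and 0.00247 by DESeq2 (0.00247 to 0.469 over all settings tried). It was -1.26 without sh-NC replicate 2 and -0.88 with the GC trend removed.

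In the other direction 6 of the 65 list genes passed the unadjusted p and the fold limit, as did 10.1% of all genes, so the count is near the background. Without sh-NC replicate 2 the count was 4, with ADAM10 at 0.92 and CIR1 at 0.99 inside the fold limit. MIB1, the ubiquitin ligase that prepares ligands for signaling, had 245, 71.2 and 205 normalized counts in sh-NC against 798, 482 and 252 in shRBM10, a log2 fold change of 1.55 (SE 0.51, adjusted p = 0.158 by edgeR). ADAM10, the protease that makes the first ligand-dependent cut, had 552, 149 and 526 against 1346, 1338 and 566, with 1.40 (SE 0.49, adjusted p = 0.169 by edgeR). MAML2, a Mastermind coactivator, had 115, 38.3 and 113 against 315, 294 and 123, with 1.45 (SE 0.48, adjusted p = 0.158 by edgeR). In each of these the groups did not overlap, and library C lay just above the highest sh-NC library. CIR1, a corepressor of RBPJ, had 233, 208 and 231 against 572, 531 and 364, with 1.12 (SE 0.27, adjusted p = 0.137 by edgeR and 0.0167 by DESeq2, 0.0167 to 0.525 over all settings tried). The histone demethylase KDM5A and the chromatin factor L3MBTL3, both partners of RBPJ in repression, had log2 fold changes of 1.53 (SE 0.56) and 1.61 (SE 0.55). In all 6 library C was the lowest shRBM10 library and replicate 2 the lowest sh-NC library, at 0.209 to 0.897 of the mean of the other controls, and 5 of the 6 did not overlap between groups. Their GC content lay between 37.7% and 44.6%, and with the GC trend removed the log2 fold changes were 0.81 for MIB1, 0.70 for ADAM10, 1.04 for MAML2, 0.42 for CIR1, 0.97 for KDM5A and 0.99 for L3MBTL3.

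**Figure D4:**
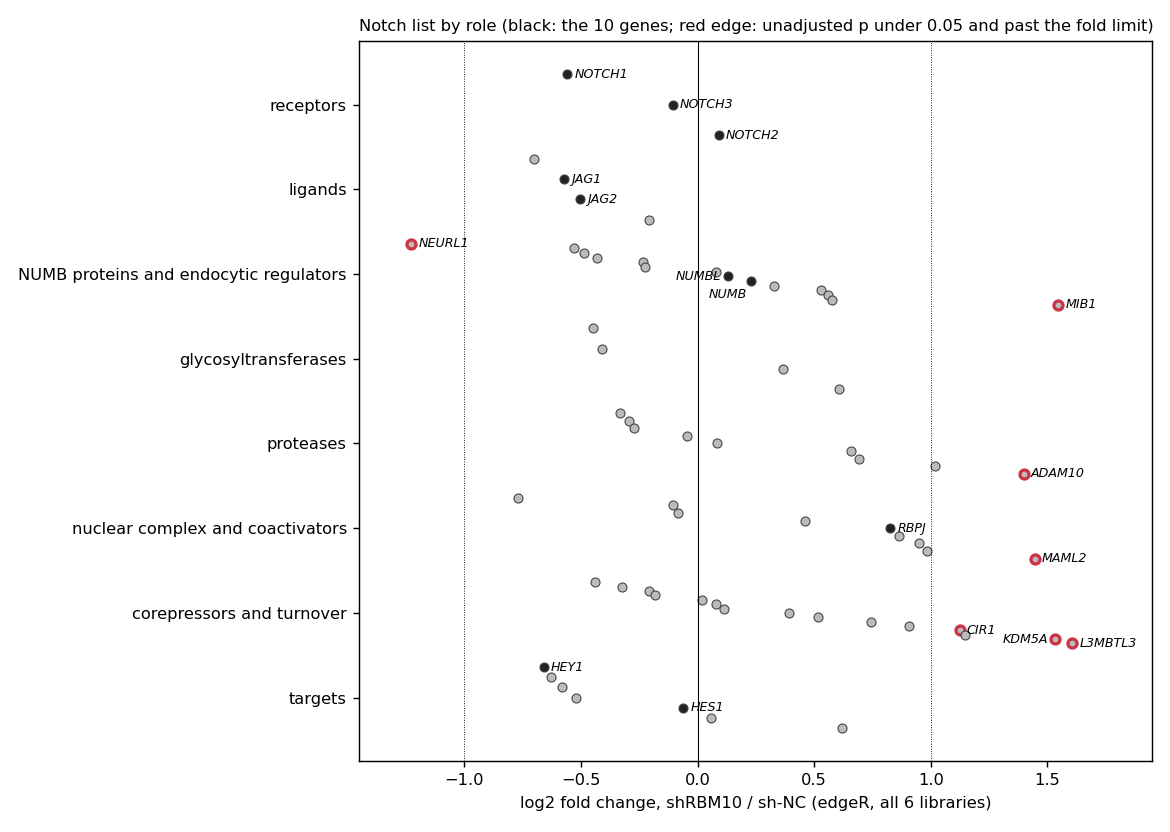
Log2 fold change of shRBM10 against sh-NC by edgeR with all 6 libraries (horizontal axis) for the 65 tested genes of the Notch list, in rows by role, with the 10 genes in black and a red edge on genes with an unadjusted p under 0.05 past the dotted fold limits. All 4 ligands lay below 0 in this fit (DLL4 stood at 0.07 with the GC trend removed), and none of the 10 genes has a red edge.

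Beyond the members, the gene with the highest mean count in each role was EPN1 among endocytic regulators, with a log2 fold change of -0.43 (adjusted p = 0.320 by edgeR), POFUT1 among glycosyltransferases (-0.41), FURIN among proteases (-0.05), SNW1 among coactivators (0.87) and HDAC1 among corepressors (0.02). None of these 5 passed an adjusted p of 0.05 by edgeR, and SNW1 alone had an unadjusted p under 0.05. NOTCH3, JAG1 and HES1 held the highest counts of their own roles.

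The genes whose levels ran most like those of NUMB over the 6 libraries were WDR33 (Pearson r = 0.997 of log2 CPM), LOC112268437 (0.996), PRDM15 (0.994), PVRIG (0.992) and PDE12 (0.992). WDR33, a subunit of the polyadenylation machinery, had 1329, 841 and 1462 normalized counts in sh-NC against 1478, 1329 and 1336 in shRBM10. Like NUMB, each of the 5 was lowest in sh-NC replicate 2 and highest in library A, and the 6 points share libraries and depth, so the values describe a pattern only.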

How the data were processed

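RNA-seq of 6 PC9 libraries was sequenced by BGI-Tech. The authors deposited estimated counts, normalized counts, TPM and FPKM for each library, for genes and for RefSeq transcripts, with columns of group means that were not used here, and the labels give build hg38. The aligner, counting tool and annotation are not given in the sources used here, and the label text names several library kits without assigning one, so antisense reads cannot be told apart. The estimated counts and, for sh-NC, the deposited TPM values were used, and 15 further columns of per-sample values in the gene table and 18 in the transcript table were not. Columns were mapped to groups by name, and 2 shRBM10 columns match no sample title.

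Counts were rounded to whole numbers, filtered with filterByExpr, scaled by TMM and tested in edgeR 4.0.16 (R 4.3.3) with its quasi-likelihood functions glmQLFit and glmQLFTest, on all 6 libraries without a covariate, with Benjamini-Hochberg adjustment over all genes tested. The SE is the log2 fold change divided by the square root of F. Calls required a log2 fold change beyond 1 in size and an adjusted p under 0.05. Transcript usage was tested with diffSpliceDGE and a Simes p per gene. Single values were compared by exact two-sided permutation tests, and shares carry 95% Wilson intervals (SciPy 1.17.1). Exons, GC content and length are from GENCODE on GRCh38, and promoters are from RefSeq. GC content and length were matched to 12570 genes (99.6%) by Entrez identifier, or by symbol where that gave no transcript, through the longest transcript. DLL3, DLL4, KAT2A, HES4 and XM_011518717 were named after their values were seen. The other genes named are the 10 members, RBM10, list genes with an unadjusted p under 0.05 past the fold limit, the list gene with the highest mean count in each role, and the 5 genes correlated most with NUMB. The members, lists and tests were chosen with earlier results of these data known. Scripts were tested on simulated data.

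The alternatives were DESeq2 1.42.0, limma-voom and diffSplice (limma 3.58.1), RLE size factors, no filter, at least 10 counts in every library, removal of a GC trend, transcript counts unrounded or divided by length, and leaving out each library. Removal of a GC trend without sh-NC replicate 2, and the share of the 33-base exon, were added after the data were seen.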

Additional observations from a re-analysis of the deposited data

How the results depend on the processing

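HEY1 rests on 14 to 38 counts per library, and the part of depth in the spread of the other genes was not tested. No paired analysis was possible because only 1 shRBM10 column carries a replicate number. Leaving out single libraries moved the log2 fold change between -0.39 and 0.37 for NOTCH2 (negative without sh-NC replicate 2 or library C), -0.48 and 0.070 for NOTCH3, -0.057 and 0.38 for NUMB (negative without sh-NC replicate 2), -0.15 and 0.25 for NUMBL (negative without sh-NC replicate 2 or library C), -0.23 and 0.035 for HES1 (positive without library B), -0.38 and 0.10 for FURIN, -0.072 and 0.13 for HDAC1 and -0.43 and 0.0027 for DLL4. The share with the 144-base exon moved between -1.43 and 1.84 points. With the GC trend removed NOTCH3 stood at 0.18, NUMB at -0.14, FURIN at 0.24, HDAC1 at -0.10 and DLL4 at 0.068. With sh-NC replicate 2 left out as well, NOTCH2 stood at -0.32, NUMB at -0.34, RBPJ at -0.14, FURIN at 0.090 and DLL3 at 0.036, and NOTCH1 (-0.63) and JAG1 (-0.89) passed an adjusted p of 0.05 by edgeR. HDAC1 stood at -0.0039 by DESeq2. NUMB usage stayed at an adjusted p of 0.970 or more in all settings run.

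By DESeq2, which called 4.19% of its genes with an adjusted p, 3 list genes were called where edgeR called 0. Of list genes at an unadjusted p past the fold limit, the count of lower ones was 1, or 2 by DESeq2 and with no filter, 0 with the GC trend removed, and 1 to 2 when single libraries were left out. The count of higher ones was 6, or 2 with the GC trend removed, 0 when sh-NC replicate 2 was left out too, and 1 (without library A) to 10 (without sh-NC replicate 1) when single libraries were left out. For the 10 genes that count was 0, and 0 to 1 when single libraries were left out, the 1 being RBPJ without sh-NC replicate 1. In 8 further cases RBM10, MIB1, NEURL1, CIR1 or KAT2A passed an adjusted p of 0.05. In all, 389 values kept their direction or side of the threshold, or were counts of genes equal or close to the main count. Counts of 4 to 9 higher list genes were taken as close to 6. The causes of the changes were not tested.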
